A study of Mus musculus with 10 samples.

Results

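Glutathione transferases attach the tripeptide glutathione to reactive and lipid-derived molecules, and glutathione peroxidases use it to reduce hydrogen peroxide and lipid hydroperoxides. Glutathione itself is made by glutamate-cysteine ligase and glutathione synthetase, and its oxidized form is returned to the reduced form by glutathione reductase. The soluble transferases fall into classes by sequence, and a separate membrane-bound family includes enzymes related to leukotriene synthesis. In the uterus, the expression of several of these genes is known to respond to ovarian steroids. The genes described here are the 36 protein-coding genes, of 29268 genes in the table, that carry the symbol of a transferase (alpha to zeta class and membrane-bound), of a glutathione peroxidase, or of an enzyme of glutathione synthesis or recycling. The rule that chose them uses the symbol and gene type only.

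RNA-seq was carried out on whole uterus of 5 HSD17B1TG and 5 WT female FVB/N mice, all 4 months old, and each mouse gave 1 library. HSD17B1TG mice are heterozygous for a human *HSD17B1* cDNA, the enzyme that converts estrone to estradiol, which is driven in all tissues by a chicken beta actin promoter with a CMV enhancer. WT mice carry no transgene. According to the study's methods, estrous cycles are absent in the transgenic females, and the cycle phase of the WT females was not controlled, so genotype and absence of cycling cannot be told apart. Mice are called TG1 to TG5 and WT1 to WT5. Counts on genes came to between 14817228 and 23271988 per mouse, and no 2 mice had identical counts. The annotation counts mouse genes, so the transgene was not measured: mouse *Hsd17b1* measured 0.918 ± 0.375 FPKM in WT and 0.992 ± 0.290 in HSD17B1TG (SD over 5 mice each, edgeR adjusted p = 0.879). FPKM are fragments per kilobase of gene scaled for depth, here by 1 size factor per mouse. Summed FPKM of 11 epithelial markers lay between 779 (TG1) and 3480 (TG5) in HSD17B1TG and between 560 (WT5) and 1710 (WT4) in WT, and summed stromal markers between 502 (TG5) and 2070 (TG1) against 1710 and 2060. Smooth muscle markers were highest in TG1 (4140 FPKM) and WT4 (3400), against 1811 or less in the other HSD17B1TG mice and 1319 or less in the other WT mice.

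The HSD17B1TG uterus had more RNA of 4 genes of the family, each from a different class. The omega-class gene *Gsto1* rose 6.28-fold, the pi-class gene *Gstp2* 5.60-fold, the theta-class gene *Gstt2* 3.33-fold and the membrane-bound *Mgst3* 2.67-fold. No gene of the family passed the same threshold downwards. A call required an adjusted p under 0.05 in edgeR's quasi-likelihood test, a fold change over 2 and a mean over 1 FPKM in either group. Of the 32 family genes with enough counts to be tested, 4 were called up, or 12.5%, where 2.16% of the 16993 genes tested were called up. None was called down, where 2.08% of all genes were. Without the thresholds on fold and level, the adjusted p alone gave the same counts, 4 up and 0 down, against 3.34% and 2.81% of all genes. The calls depended on single mice, with none left when TG2, TG5, WT2, WT3 or WT5 was taken out. Calls up over all genes then also fell, from 367 to 68 or fewer.

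Most of the family sat below that threshold with wide differences between mice. An unadjusted p under 0.05 was reached by 18 of the 32 genes, 11 higher and 7 lower in HSD17B1TG, where 14.7% and 11.4% of all genes reached it in each direction. Fold changes of the family were spread to both sides, with 15 genes above 0 and 17 below, 14 beyond 1 on the log2 scale in size, and a median log2 fold change of -0.04 beside 0.00 over all genes tested. In bulk tissue, fewer cells of a type and less RNA per cell cannot be told apart for any of these genes.

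**Figure D1:**
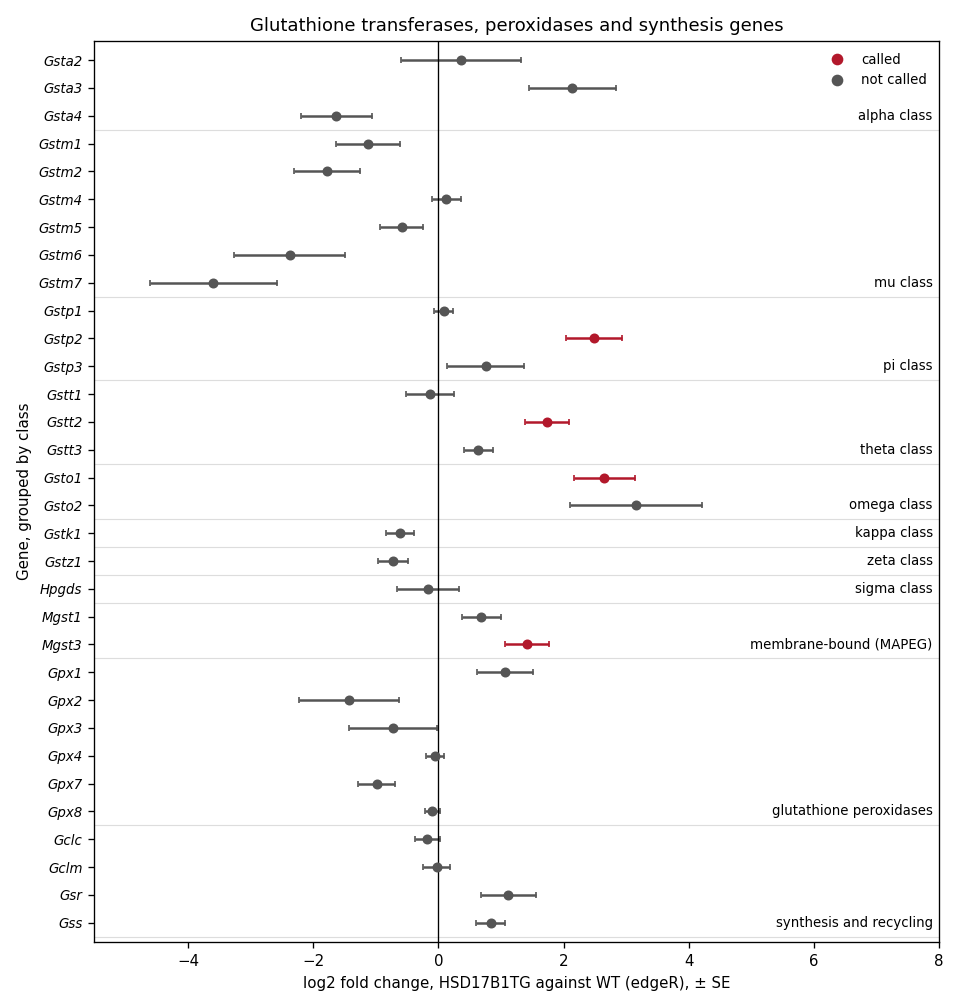
Log2 fold change of HSD17B1TG against WT on the horizontal axis, with bars of 1 SE, for the 32 genes tested, grouped by class. Genes called are in red. *Gsto1*, *Gstp2*, *Gstt2* and *Mgst3* lie above 1, and most of the mu class lies below 0.

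*Gsto1* encodes an omega-class transferase that reduces dehydroascorbate and mixed disulfides. It lies on the forward strand at chr19:47854970-47864790 (GRCm38) and was the most abundant transferase of the HSD17B1TG uterus by mean FPKM. Its level was 152, 473, 283, 463 and 941 FPKM in TG1 to TG5 and 106, 79.9, 37.1, 101 and 44.8 FPKM in WT1 to WT5. Every HSD17B1TG mouse was above every WT mouse, with TG1 nearest to WT. The means were 462 ± 299 and 73.7 ± 31.6 FPKM (SD, n = 5 each), a log2 fold change of 2.65 ± 0.49 (SE, edgeR adjusted p = 0.0224). An exact permutation test of the mice, two-sided and on log2(FPKM + 1), gave p = 0.00794, the smallest that 252 assignments of 10 mice allow. Groups without overlap and with HSD17B1TG higher were seen in 2 genes of the family, *Gsto1* and *Gstp2*, where 4.04% of all genes tested had that order.

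*Gsto2*, the other omega-class gene, lies just downstream of *Gsto1* at chr19:47865545-47886324 and was a low transcript. It measured 0.588, 0.445, 0.480, 3.64 and 11.4 FPKM in TG1 to TG5 and 0.393, 0.102, 0.880, 0.375 and 0.0944 FPKM in the WT mice. Only TG4 and TG5 were above all WT mice. Its log2 fold change of 3.16 ± 1.05 was the largest upward value of the family and did not pass (edgeR adjusted p = 0.0896). It rested on TG5, without which it was 1.80, below *Gsto1* and *Gstp2* in the same fit.

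The pi class has 3 genes next to each other on the reverse strand of chromosome 19, and they behaved differently. *Gstp2* (chr19:4040285-4042236) measured 3.76, 2.24, 1.79, 0.805 and 3.25 FPKM in TG1 to TG5 and 0.581, 0.410, 0.242, 0.377 and 0.444 FPKM in WT1 to WT5. All HSD17B1TG mice were above all WT mice, with TG4 closest, and unlike *Gsto1* the highest mouse was TG1. The log2 fold change was 2.49 ± 0.45 (edgeR adjusted p = 0.0219, exact permutation p = 0.00794), on means of 2.37 ± 1.17 and 0.411 ± 0.122 FPKM. These levels rest on few reads, 54, 30, 26, 10 and 39 counts in TG1 to TG5 and 11, 6, 3, 6 and 7 in WT1 to WT5, and the minimum of 1 FPKM was met only in HSD17B1TG. *Gstp1* (chr19:4035407-4037921), the main pi-class transcript, measured 121, 73.9, 102, 85.0 and 103 FPKM in TG1 to TG5 and 94.9, 90.3, 110, 82.2 and 78.6 FPKM in WT1 to WT5. The groups overlapped, with a log2 fold change of 0.08 ± 0.15 (adjusted p = 0.774). *Gstp3* (chr19:4057477-4059446) lay between 1.13 and 5.44 FPKM in HSD17B1TG and between 0.207 and 2.71 in WT (log2 fold change 0.76 ± 0.61, adjusted p = 0.468).

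*Gstp2* is close enough to its neighbour for reads to be shared. In the GENCODE M21 annotation the coding sequences of *Gstp1* and *Gstp2*, both 630 bases, differed at 12 positions (98.1% identity), and the longest stretch without a difference was 300 bases. Of all 150-base windows of *Gstp2* transcripts, the length of 1 read, 31.6% were also found in *Gstp1* or in the pseudogene *Gstp-ps*. *Gstp3* differed from *Gstp1* at 178 positions (71.7% identity) and shared no window. How reads with several matches were counted is not given in the sources used here, so the level of *Gstp2* is uncertain. *Gstp-ps* measured 9.56 to 25.8 FPKM in HSD17B1TG and 13.02 to 23.7 FPKM in WT (log2 fold change -0.0042 ± 0.28, adjusted p = 0.994). The part of shared reads in the *Gstp2* values was not tested. The stretch of the coding sequence in which *Gstp2* differs most from *Gstp1*, bases 1 to 120 from the start codon, is shown to let the copies be compared, with bases that differ from *Gstp1* in capitals:
Gstp1: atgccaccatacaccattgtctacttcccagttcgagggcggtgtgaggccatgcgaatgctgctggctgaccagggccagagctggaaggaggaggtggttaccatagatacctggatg
Gstp2: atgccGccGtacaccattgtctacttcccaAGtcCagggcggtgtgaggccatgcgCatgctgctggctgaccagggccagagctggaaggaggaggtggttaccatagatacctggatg
Gstp3: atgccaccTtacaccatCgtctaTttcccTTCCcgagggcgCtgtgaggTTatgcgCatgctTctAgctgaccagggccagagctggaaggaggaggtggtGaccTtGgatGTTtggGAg
Over these 120 bases *Gstp2* has 6 differences and *Gstp3* has 21.

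Theta-class genes lie in a row on chromosome 10. *Gstt2* (chr10:75831114-75837424, reverse strand) measured 11.9, 22.1, 19.9, 25.5 and 41.3 FPKM in TG1 to TG5 and 7.21, 6.40, 4.54, 12.7 and 5.45 FPKM in WT1 to WT5. The groups overlapped only through TG1 and WT4. Its log2 fold change was 1.73 ± 0.35 (edgeR adjusted p = 0.0268, exact permutation p = 0.0159). *Gstt3* was between 5.07 and 11.8 FPKM against 3.73 and 5.49 (log2 fold change 0.64 ± 0.23, adjusted p = 0.109), and 16.3% of its windows are shared with the overlapping gene model *Gm20441*. *Gstt1* measured 20.4, 11.4, 8.35, 30.4 and 13.6 FPKM in TG1 to TG5 and 12.5, 14.2, 24.7, 11.3 and 28.9 FPKM in WT1 to WT5, with no order between the groups (log2 fold change -0.13 ± 0.39, adjusted p = 0.863).

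*Mgst3* encodes a membrane-bound transferase with peroxidase activity that can also conjugate leukotriene A4. At chr1:167371966-167393841 on the reverse strand, it measured 21.1, 37.8, 44.7, 33.9 and 58.8 FPKM in TG1 to TG5 and 9.90, 9.69, 14.9, 28.4 and 10.4 FPKM in WT1 to WT5. WT4 stood apart from the other WT mice and was above TG1. The log2 fold change was 1.42 ± 0.36 (edgeR adjusted p = 0.0445, exact permutation p = 0.0159). *Mgst1*, the most abundant gene of its group and an enzyme of the endoplasmic reticulum and mitochondrial outer membrane, measured 48.9, 107, 77.0, 99.4 and 191 FPKM in TG1 to TG5 and 53.6, 70.3, 60.3, 58.9 and 81.7 FPKM in WT1 to WT5. TG1 was below every WT mouse, and the log2 fold change of 0.69 ± 0.31 did not pass (adjusted p = 0.191).

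**Figure D2:**
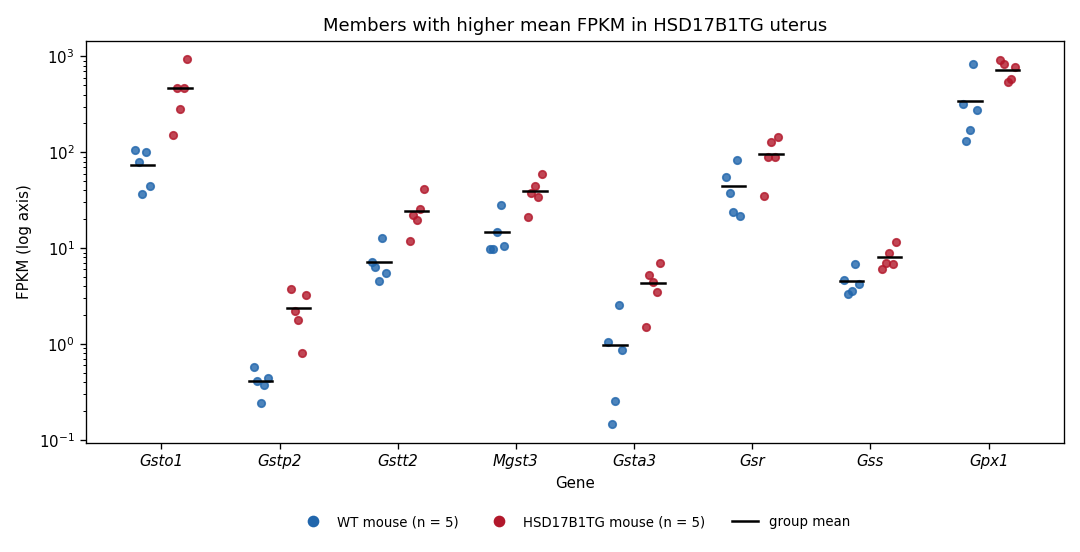
FPKM on a log axis of 8 genes with a higher mean in HSD17B1TG, 1 point per mouse and a black line for the mean of each group. The groups are apart for *Gsto1* and *Gstp2*, and in *Gpx1* and *Gss* 1 WT mouse, WT4, lies among the HSD17B1TG mice.

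The promoters of 3 of the called genes, and of *Gsta3* for comparison, are shown. *Gsta3* did not pass the test and is included because its window holds the antioxidant motif. Each window of 300 bases runs from 250 before to 50 after the start in RefSeq (GRCm38.p6), 5′ to 3′ on the strand of the gene. Capitals mark a match on either strand to the antioxidant response element core TGACNNNGC or to its variant TGAGNNNGC, at which NRF2 and small MAF proteins are known to bind, or to the estrogen response element GGTCANNNTGACC, whose TGAC can overlap the first motif.
Gsto1 promoter, chr19:47854723-47855022, forward strand: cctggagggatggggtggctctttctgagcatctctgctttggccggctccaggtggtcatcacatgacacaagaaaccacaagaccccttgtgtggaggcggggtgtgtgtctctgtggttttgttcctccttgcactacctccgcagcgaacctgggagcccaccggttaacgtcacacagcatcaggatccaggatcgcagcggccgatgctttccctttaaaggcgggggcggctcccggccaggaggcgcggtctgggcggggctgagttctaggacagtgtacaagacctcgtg
Gstp2 promoter, chr19:4042172-4042471, reverse strand: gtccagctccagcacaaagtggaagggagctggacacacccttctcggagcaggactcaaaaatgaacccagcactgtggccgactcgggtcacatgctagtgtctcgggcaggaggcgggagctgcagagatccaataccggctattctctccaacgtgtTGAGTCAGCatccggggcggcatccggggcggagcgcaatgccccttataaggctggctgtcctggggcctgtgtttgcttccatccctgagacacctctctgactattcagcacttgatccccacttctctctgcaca
Mgst3 promoter, chr1:167393792-167394091, reverse strand: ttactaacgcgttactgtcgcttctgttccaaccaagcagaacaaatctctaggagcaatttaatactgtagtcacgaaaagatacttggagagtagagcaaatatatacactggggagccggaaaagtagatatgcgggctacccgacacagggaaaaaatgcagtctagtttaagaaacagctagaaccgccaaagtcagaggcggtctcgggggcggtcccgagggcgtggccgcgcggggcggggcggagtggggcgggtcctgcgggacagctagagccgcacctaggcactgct
Gsta3 promoter, chr1:21240335-21240634, forward strand: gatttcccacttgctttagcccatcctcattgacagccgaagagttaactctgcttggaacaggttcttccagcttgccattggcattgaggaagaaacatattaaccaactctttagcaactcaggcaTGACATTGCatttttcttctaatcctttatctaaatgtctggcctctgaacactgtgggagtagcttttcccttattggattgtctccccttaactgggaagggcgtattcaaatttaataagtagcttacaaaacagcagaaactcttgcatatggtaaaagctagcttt

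The match in *Gsta3* starts 121 bases before the gene start and that in *Gstp2* 89 bases before it, and the windows of *Gsto1* and *Mgst3* hold none of the 3 motifs. Of the family, 32 genes had 44 promoter windows in the table (*Gsta4*, *Gstt2*, *Gclc* and *Gsr* had no entry). TGACNNNGC was found in 5 of the 44 windows (11.4%), those of *Gclm*, *Gsta3*, *Gstm5*, *Gstm7* and *Mgst1*, where 12.4% of all 32851 windows hold it. TGAGNNNGC was found in 8 windows (18.2%), among them those of *Gstp1*, *Gstp2* and *Gstp3*, where 17.6% of all windows hold it. GGTCANNNTGACC was found in none of the family and in 0.07% of all windows. A match of letters in this window is a description and not a site shown to be used.

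Mu-class genes, a cluster of detoxifying transferases on chromosome 3, were on the low side in HSD17B1TG, but none passed the test in edgeR. Of the 6 tested, 5 had a lower level, 3 with an unadjusted p under 0.05, and the class median log2 fold change was -1.45. DESeq2 called *Gstm2* (adjusted p = 0.00929), *Gstm6* and *Gstm7* (adjusted p = 0.000626) down, where it called 3.07% of all genes down. *Gstm1*, the most abundant of them (chr3:108012255-108017973, reverse strand), measured 137, 59.4, 36.3, 144 and 91.5 FPKM in TG1 to TG5 and 107, 217, 447, 76.3 and 167 FPKM in WT1 to WT5. Only TG2 and TG3 were below all WT mice (log2 fold change -1.12 ± 0.51, edgeR adjusted p = 0.193).

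*Gstm2* (chr3:107981702-107986453) was nearly constant in the transgenic line, at 26.7, 33.3, 31.1, 26.6 and 34.1 FPKM in TG1 to TG5, and measured 57.8, 95.3, 287, 33.5 and 45.0 FPKM in WT1 to WT5. The WT mice thus spread over 8.57-fold and the HSD17B1TG mice over 1.28-fold, and WT4 lay among the transgenic mice (log2 fold change -1.78 ± 0.53, adjusted p = 0.0663). Without WT3 the value was -0.96 (edgeR adjusted p = 0.0934). *Gstm7* (chr3:107926334-107931817) had the widest spread in WT of the abundant transferases, with 12.0, 263, 61.2, 3.63 and 31.5 FPKM in WT1 to WT5, and 2.51, 4.34, 8.80, 4.53 and 10.9 FPKM in TG1 to TG5. Its WT range of 72.6-fold compares with 4.34-fold in HSD17B1TG, and only TG1 was below every WT mouse (log2 fold change -3.60 ± 1.01, adjusted p = 0.0573). Without WT2 it was -2.15 (edgeR adjusted p = 0.135).

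*Gstm5* measured 48.2, 24.7, 17.8, 29.0 and 25.5 FPKM in TG1 to TG5 and 20.2, 56.7, 50.1, 29.1 and 60.8 FPKM in WT1 to WT5, with overlap (log2 fold change -0.59 ± 0.34, adjusted p = 0.305). The low transcript *Gstm6* lay between 0.0935 and 0.711 FPKM against 0.268 and 5.29 (log2 fold change -2.38 ± 0.89, adjusted p = 0.121). *Gstm4* was at a similar level in both groups, 4.58 to 8.55 FPKM against 4.69 to 7.45 (log2 fold change 0.13 ± 0.23, adjusted p = 0.768). No 150-base window of these 6 genes occurs in another gene.

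Markers of uterine gland epithelium were also low in HSD17B1TG and uneven among WT mice. Their summed FPKM lay between 0.838 and 5.94 in HSD17B1TG and was 5.33, 22.9, 81.0, 2.05 and 57.4 in WT1 to WT5, where the mu sums were 202, 644, 854, 148 and 311 FPKM. WT4 was lowest and WT3 highest among WT mice in both. Of the 5 gland markers 2 were tested and neither was called, *Foxa2* (log2 fold change -0.23, adjusted p = 0.851) and *Cxcl15* (-5.94, adjusted p = 0.0566). *Spink1* was at 0 in 5 mice, *Prss28* in 7 and *Prss29* and *Cxcl15* in 4 each. Their part in the levels of the mu class was not tested.

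The alpha class held genes on both sides. *Gsta4*, which conjugates the lipid peroxidation product 4-hydroxynonenal, was its most abundant transcript, with 4.20, 5.27, 6.97, 12.6 and 10.5 FPKM in TG1 to TG5 and 16.4, 30.8, 51.9, 4.02 and 18.9 FPKM in WT1 to WT5. The WT mice other than WT4 were above all HSD17B1TG mice, and WT4 was below all of them (log2 fold change -1.63 ± 0.57, adjusted p = 0.101). *Gsta3* went the other way, with 1.49, 5.23, 4.48, 3.47 and 6.98 FPKM in TG1 to TG5 and 1.06, 0.145, 0.257, 2.57 and 0.877 FPKM in WT1 to WT5. Here too the overlap came from TG1 and WT4 (log2 fold change 2.14 ± 0.69, adjusted p = 0.0834, and 2.88 without WT4, adjusted p = 0.0198). *Gsta2* was near the limit of detection in both groups, at 0.502 ± 0.336 and 0.394 ± 0.492 FPKM (SD, n = 5 each), and 18.6% of its windows are shared with other genes.

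A further limit holds for genes with an overlapping neighbour, since the strand setting of the counting is not given. *Gstm5* shares 13.9% of its exon bases with the antisense RNA *4933431E20Rik*, *Gstz1* 9.14% with *Pomt2* and *Gss* 6.68% with *Acss2*, all on the opposite strand. None of the 4 called genes shares exon bases with another gene.

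The single genes of the kappa, zeta and sigma classes were low to moderate. *Gstk1*, a mitochondrial and peroxisomal transferase (chr6:42245935-42250447), measured 5.30, 4.77, 4.20, 5.23 and 4.94 FPKM in TG1 to TG5 and 6.26, 7.56, 11.1, 5.60 and 6.85 FPKM in WT1 to WT5. It was the 1 gene of the family below every WT mouse in all HSD17B1TG mice, an order seen in 2.65% of all genes tested. The exact permutation test gave p = 0.00794, but edgeR did not pass after adjustment over all genes (log2 fold change -0.62 ± 0.22, adjusted p = 0.111). *Gstz1*, an enzyme of tyrosine breakdown, measured 9.44, 6.98, 7.08, 7.17 and 6.26 FPKM in TG1 to TG5 and 9.21, 15.2, 18.6, 7.69 and 10.1 FPKM in WT1 to WT5, so that TG1 alone overlapped WT (log2 fold change -0.73 ± 0.24, adjusted p = 0.0912). *Hpgds*, which makes prostaglandin D2, measured 2.73, 2.17, 1.16, 3.06 and 3.05 FPKM in TG1 to TG5 and 1.90, 1.92, 1.37, 1.28 and 7.19 FPKM in WT1 to WT5, with WT5 far above the rest (log2 fold change -0.17 ± 0.50, adjusted p = 0.859, and 0.56 without WT5).

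**Figure D3:**
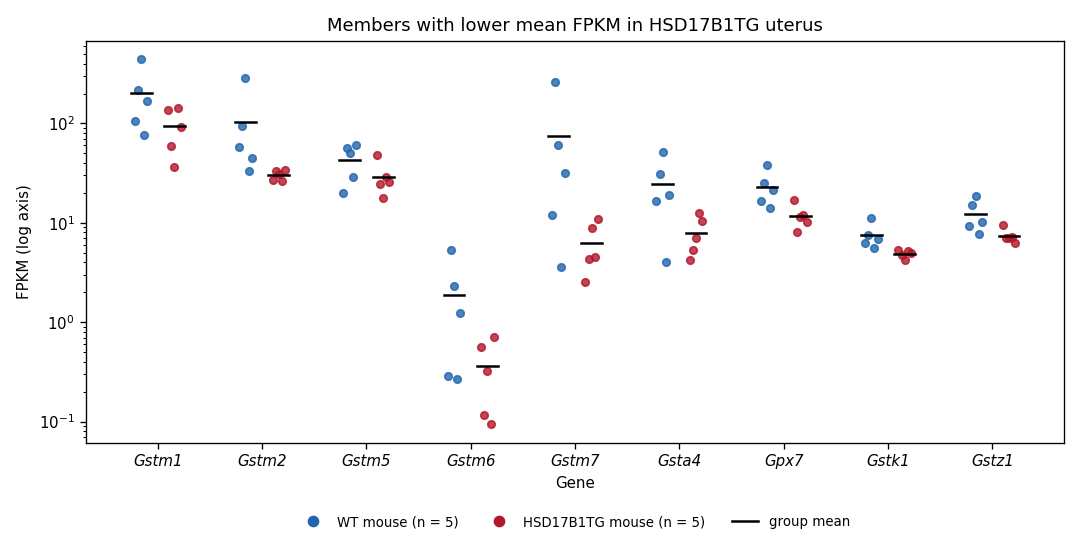
FPKM on a log axis of 9 genes with a lower mean in HSD17B1TG, 1 point per mouse and a black line for the mean of each group. WT points are spread wider than HSD17B1TG points for *Gstm2*, *Gstm7* and *Gstk1*, and only *Gstk1* has no overlap.

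Among the peroxidases, *Gpx1*, the cytosolic selenoenzyme that reduces hydrogen peroxide, had the highest mean FPKM. It measured 907, 834, 535, 580 and 768 FPKM in TG1 to TG5 and 318, 130, 173, 833 and 278 FPKM in WT1 to WT5. Each HSD17B1TG mouse was above 4 of the WT mice, while WT4 lay within the transgenic range. The log2 fold change was 1.07 ± 0.45 (edgeR adjusted p = 0.162, exact permutation p = 0.0317), and 1.69 without WT4 (adjusted p = 0.0092). *Gpx3*, the secreted plasma form, measured 262, 186, 47.8, 180 and 72.8 FPKM in TG1 to TG5 and 114, 51.6, 108, 222 and 741 FPKM in WT1 to WT5. The groups overlapped, with WT5 above every other mouse, and the log2 fold change of -0.73 ± 0.70 (adjusted p = 0.55) turned to 0.25 without that mouse.

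*Gpx4*, which protects membrane lipids and is a key brake on ferroptosis, varied little between mice, as did *Gpx8*. *Gpx4* lay between 62.0 and 96.8 FPKM in HSD17B1TG and between 66.9 and 88.7 FPKM in WT (log2 fold change -0.05 ± 0.15, adjusted p = 0.856), and 29.2% of its windows are shared with its pseudogene *Gpx4-ps2*. *Gpx8*, of the endoplasmic reticulum, lay between 57.8 and 70.9 FPKM against 56.4 and 77.2 (log2 fold change -0.10 ± 0.12, adjusted p = 0.636). *Gpx7*, of the same compartment, measured 17.1, 8.12, 11.3, 11.9 and 10.2 FPKM in TG1 to TG5 and 16.5, 25.2, 38.6, 14.0 and 21.2 FPKM in WT1 to WT5. All HSD17B1TG mice except TG1 were below every WT mouse, and the log2 fold change was -0.98 ± 0.30 (adjusted p = 0.0679). *Gpx2*, an epithelial peroxidase, was low, with 0.167, 0.464, 4.44, 0.520 and 2.35 FPKM in TG1 to TG5 and 3.66, 3.94, 9.03, 1.46 and 3.11 FPKM in WT1 to WT5 (log2 fold change -1.43 ± 0.80, adjusted p = 0.286, and -2.30 without TG3).

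In the synthesis and recycling of glutathione, the ligase genes stayed level and the genes of the later steps were higher without passing the test. *Gclc*, the catalytic subunit, lay between 10.1 and 13.6 FPKM in HSD17B1TG and between 9.94 and 20.4 FPKM in WT (log2 fold change -0.18 ± 0.20, adjusted p = 0.626). *Gclm*, the modifier subunit, lay between 6.13 and 9.88 FPKM against 5.03 and 10.6 (log2 fold change -0.03 ± 0.21, adjusted p = 0.949). *Gss*, glutathione synthetase, measured 6.10, 6.96, 8.98, 6.86 and 11.6 FPKM in TG1 to TG5 and 4.71, 3.32, 3.57, 6.88 and 4.20 FPKM in WT1 to WT5, with WT4 the only WT mouse in the transgenic range (log2 fold change 0.83 ± 0.24, adjusted p = 0.0582). *Gsr*, glutathione reductase, measured 35.0, 88.5, 127, 89.0 and 144 FPKM in TG1 to TG5 and 55.9, 37.4, 23.9, 83.5 and 21.6 FPKM in WT1 to WT5. All HSD17B1TG mice but TG1 were above all WT mice (log2 fold change 1.12 ± 0.44, adjusted p = 0.135).

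**Figure D4:**
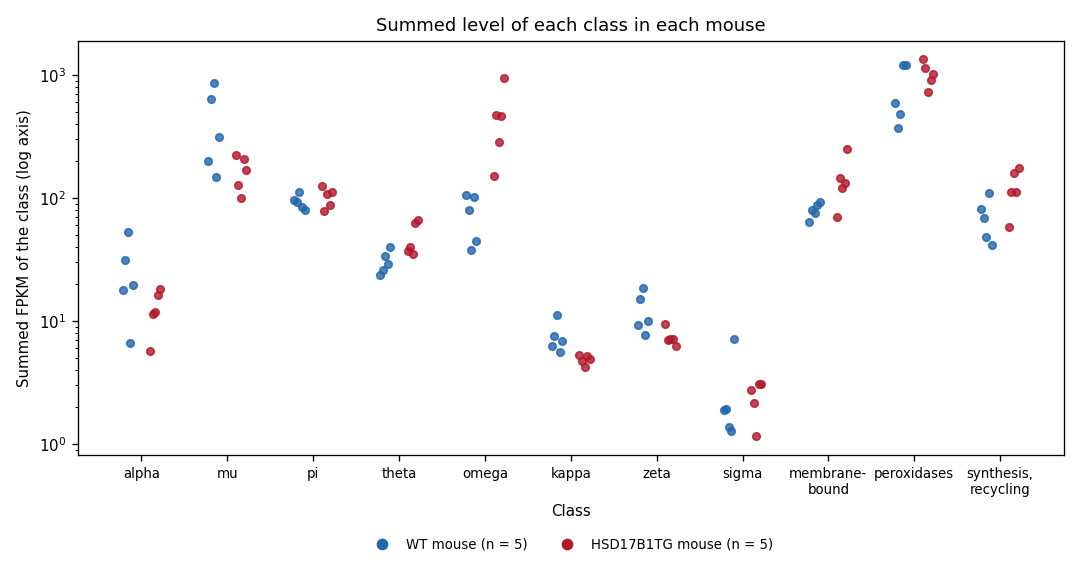
Summed FPKM of each class on a log axis, 1 point per mouse. The omega sums do not overlap (152 to 952 in HSD17B1TG, 38.0 to 106 in WT), and the mu sums are lower in HSD17B1TG with overlap (99.6 to 224 against 148 to 854).

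Class sums are plotted per mouse. Omega sums, nearly all *Gsto1*, were 152 to 952 FPKM in HSD17B1TG and 38.0 to 106 in WT. Mu sums were 99.6 to 224 FPKM against 148 to 854, pi sums 78.3 to 126 against 79.2 to 113, and peroxidase sums 735 to 1339 against 372 to 1207. The mu and alpha sums were highest in WT3, at 854 and 53.3 FPKM.

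The remaining 4 genes had too few counts to be tested. *Gsta1* had 3 counts in all 10 mice together and *Gstm3* had 7, all in WT2. *Mgst2* had 23 counts over 7 mice and *Gstt4* had 33 over 9 mice. Their means were at most 0.185 FPKM in either group.

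The same mice recurred at the edges of the groups. Some of these counts were near the share over all genes tested, given in brackets. TG5 was the highest HSD17B1TG mouse in 14 of the 32 genes tested (26.4% of all genes), and TG1 was the lowest in 14 (27.7%) and the highest in 10 (28.1%). WT3 was the highest WT mouse in 14 (20.8%), and WT4 was the WT mouse nearest to the HSD17B1TG mean in 16 of 32 (34.4% of all genes), and in 12 of the 18 with an unadjusted p under 0.05 (59.3% of all such genes). *Gsto1*, *Gstt2*, *Gstt3*, *Gstp3*, *Mgst1*, *Mgst3*, *Gsta3*, *Gss* and *Gsr* were each lowest in TG1 and highest in TG5 among HSD17B1TG mice. The epithelial marker sum had the same order. So did *Gstm7* (2.51 to 10.9 FPKM), which had the lowest log2 fold change of the family (-3.60). All 11 epithelial markers had higher means in HSD17B1TG, with 1 called up (*Spint2*), and 4 of the 8 stromal markers were called down (*Pdgfra*, *Hand2*, *Hoxa11*, *Col3a1*). Their part in these results was not tested. *Gstp2* was highest in TG1, the HSD17B1TG mouse with the lowest epithelial sum. The within-group SD of log2 CPM of the family had a median of 0.622 in HSD17B1TG and 0.666 in WT, against 0.438 and 0.37 over all genes tested, and was larger in WT for 21 of 32 genes.

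The calls depended on single mice. Without WT4, 8 family genes were called up and 4 down, namely *Gpx1*, *Gsr*, *Gss* and *Gsta3* besides the 4 genes above, and *Gpx7*, *Gsta4*, *Gstm2* and *Gstm7* downwards, and over all genes the calls also rose, to 888 up and 666 down (5.12% and 3.84%). Without TG2, TG5, WT2, WT3 or WT5, no family gene was called, and the calls over all genes fell from 367 up and 354 down to between 38 and 68 up and between 27 and 78 down. Without TG4 only *Gstp2* was called, without WT1 only *Gsto1* and *Gstp2*, without TG3 all but *Mgst3*, and without TG1 the same 4 and *Gpx7* downwards. Over all genes the shares called up and down in these fits were 0.48% and 0.381% without TG4, 0.579% and 0.84% without WT1, 2.12% and 3.05% without TG3, and 4.42% and 3.33% without TG1. Over the 10 fits the adjusted p of *Gsto1* ranged from 0.0115 to 0.0619, that of *Gstp2* from 0.0158 to 0.0593, that of *Gstt2* from 0.00658 to 0.0747 and that of *Mgst3* from 0.00658 to 0.11. Their log2 fold changes stayed between 2.22 and 2.88, 2.26 and 2.71, 1.45 and 2.03, and 1.23 and 1.80. The Wald test of DESeq2 on the same counts, the tool of the study's methods, called 6 family genes up (the 4 above, *Gsta3* and *Gsto2*) and 4 down (*Gsta4*, *Gstm2*, *Gstm6* and *Gstm7*), where it called 4.17% and 3.07% of the 21712 genes with an adjusted p.

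**Figure D5:**
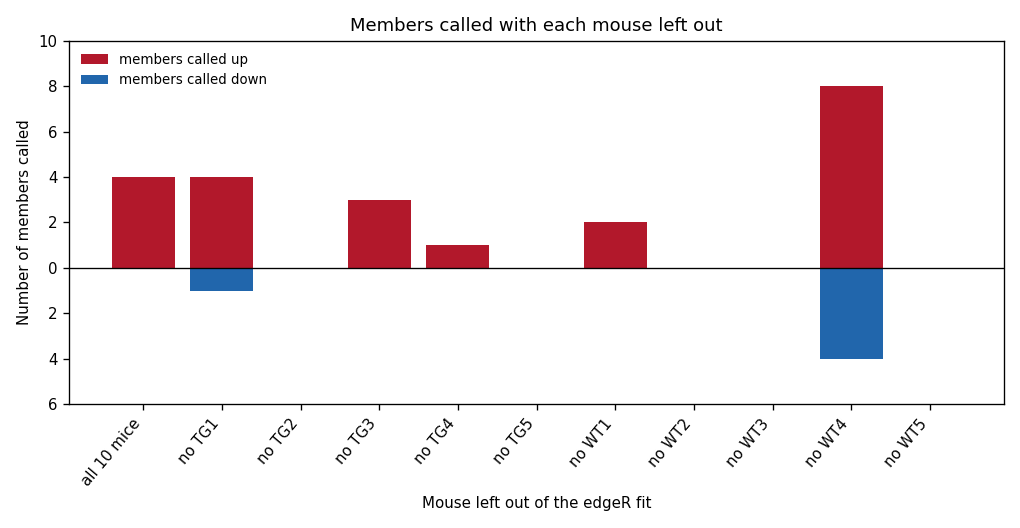
Number of family genes called up (red, above 0) and down (blue, below 0) by edgeR with all 10 mice and with each mouse left out in turn. The count is 4 up with all mice, 8 up and 4 down without WT4, and 0 without TG2, TG5, WT2, WT3 or WT5.

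Other genes of glutathione and redox metabolism were taken from 6 lists, of which 125 genes were tested, with 7 called up, 1 called down and a median log2 fold change of 0.11, where 2.16% and 2.08% of all genes tested were called and their median was 0.00. Without TG2, TG4, TG5, WT2, WT3 or WT5, 1 of these genes was called up, without WT1 there were 2, without TG1 12 and without WT4 13. Calls over all genes moved the same way, to between 38 and 100 up where pathway calls fell, 763 up without TG1 and 888 without WT4, against 367. The 1 called down was lost without TG2, TG4, TG5 or any WT mouse but WT4, while without TG1 3 were called down and without TG3 or WT4 2. *Ltc4s*, leukotriene C4 synthase, a relative of *Mgst3*, was the called gene among 18 other glutathione-dependent enzymes. It measured 4.87, 5.16, 2.83, 3.73 and 6.34 FPKM in TG1 to TG5 and 1.40, 0.934, 1.22, 1.19 and 1.06 FPKM in WT1 to WT5, without overlap (log2 fold change 1.97 ± 0.29, adjusted p = 0.0159). Of 22 genes of glutathione breakdown, precursor supply and export, none was called, and 3 higher and 3 lower had an unadjusted p under 0.05 in edgeR. Among 17 thioredoxins and peroxiredoxins none was called, 2 in each direction had an unadjusted p under 0.05, and those with the smallest p were *Srxn1*, which repairs oxidized peroxiredoxins (log2 fold change 0.60 ± 0.18, adjusted p = 0.0677), and *Prdx4* (-0.68 ± 0.22, adjusted p = 0.0871).

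Of 14 superoxide dismutase, catalase and NADPH oxidase genes, 2 were called up, *Cyba*, a membrane subunit of NADPH oxidases, and *Noxa1*, an activator of NOX1. *Cyba* lay between 122 and 413 FPKM in HSD17B1TG and between 72.7 and 121 FPKM in WT (log2 fold change 1.54 ± 0.29, adjusted p = 0.0229). *Noxa1* lay between 8.33 and 48.3 FPKM against 0.996 and 7.49 (log2 fold change 2.31 ± 0.56, adjusted p = 0.0414). Summed FPKM of 6 neutrophil markers lay between 7.27 and 12.4 in HSD17B1TG and between 0.601 and 4.32 in WT. Of these, 3 were tested and 0 called. Macrophage marker sums lay between 118 and 270 against 123 and 201. The part of these cells in the oxidase levels was not tested. NRF2 is the transcription factor best known for inducing transferase and glutathione synthesis genes. Of 30 genes listed here for its pathway and targets outside the family, 4 were called up and 0 down, where 2.16% and 2.08% of all genes were. Whether each listed gene is a target in uterus was not tested. Of the 30, 25 lay above 0, as did 50.2% of all genes tested, and their median log2 fold change was 0.55 beside 0.00 over all genes. Called up were *Mafk*, a small MAF partner (log2 fold change 1.04 ± 0.20, edgeR adjusted p = 0.0243), and the growth inhibitor *Osgin1* (1.83 ± 0.44, adjusted p = 0.0405). So were *Trp53inp1* (1.44 ± 0.36, adjusted p = 0.0445) and the epoxide hydrolase *Ephx1* (1.40 ± 0.35, adjusted p = 0.0445). *Nqo1*, a standard NRF2 target, did not pass (log2 fold change 1.43, adjusted p = 0.127). Below 0 lay 5 of the 30, among them *Akr1b8* (log2 fold change -0.76, edgeR adjusted p = 0.0767) and *Slc7a11* (-1.2, adjusted p = 0.293). The part of NRF2 in these levels was not tested.

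Of 31 genes of selenoprotein synthesis and selenoproteins, 1 was called, *Lrp2*, a receptor that takes up selenoprotein P, which fell. It measured 0.138, 0.138, 0.0573, 0.360 and 0.392 FPKM in TG1 to TG5 and 4.13, 3.25, 21.7, 0.618 and 0.713 FPKM in WT1 to WT5 (log2 fold change -4.82 ± 1.07, adjusted p = 0.0336), and WT4 and WT5 were near the HSD17B1TG level.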

How the data were processed

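Whole-uterus RNA of 5 HSD17B1TG and 5 WT mice was read in pairs of 150 bp. The authors aligned these with HISAT2 2.0.5 (Ensembl 94 annotation, GRCm38) and deposited a raw count, a size-factor scaled signal and an FPKM per gene and mouse. FPKM were scaled by the DESeq2 size factor of each mouse, not by its own total. Which program counted reads, with what strand setting and how multi-mapped reads were treated, is not given in the sources used here. The deposited comparison columns (fold changes, p-values) and the GO and KEGG tables hold the authors' comparison and were not used, nor was the scaled signal.

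The test was that of edgeR 4.0.16 on the counts, run in R 4.3.3 (filterByExpr, TMM, quasi-likelihood test, Benjamini-Hochberg over 16993 genes). SE is the size of the log2 fold change divided by the square root of F. Calls needed adjusted p under 0.05, fold over 2 and mean FPKM over 1 in either group, as in the study's methods. Single genes were also compared with an exact permutation test (two-sided, not adjusted) of log2(FPKM + 1). SDs of log2 CPM used a prior count of 2. Alternatives used DESeq2 1.42.0, limma 3.58.1, other filters and scalings, and each mouse left out. The fits were tested on simulated data with 200 changed genes. The p-values weigh the difference between groups against the spread within them and take the mice as independent. The labels do not state litters or batches, so this could not be checked. A count of 3 equals 0.202 CPM in the shallowest library, which covers counting error only.

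Values per mouse are given, by rule, for genes with adjusted p under 0.05, genes without overlap and the most abundant gene of each class. *Gsta3*, *Gstm2*, *Gstm5*, *Gstm7*, *Gsto2*, *Gpx2*, *Gpx3*, *Gpx7* and *Gss* were added after their values were seen. *Nqo1*, *Akr1b8* and *Slc7a11* were likewise added from a pathway list. Pathway genes named are those with adjusted p under 0.05, otherwise the 2 with the smallest p, and 1 such result is not reported here. The genes, lists and tests were chosen with earlier results of these data known. Coordinates are those of the deposited table. Overlaps and shared windows were taken from GENCODE M21, where 32 of the 36 genes have the same coordinates, and promoters from RefSeq (GRCm38.p6).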

Additional observations from a re-analysis of the deposited data

Results flagged for a closer look

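In 23 genes of the family, each group of 5 mice was examined for a mouse whose gap to its nearest neighbour exceeded 0.71 of the group's range, Dixon's 95% limit. Of 46 groups, 7 had such a mouse, where chance flags about 1 in 20 groups. Since 9 of the genes were added after their values were seen, these counts are not comparable with that rate. In WT these were WT3 for *Gstm2* (286.8 FPKM), WT2 for *Gstm7* (263.4 FPKM), WT5 for *Hpgds* (7.19 FPKM) and *Gpx3* (741.4 FPKM), and WT4 for *Mgst3* (28.4 FPKM) and *Gpx1* (832.7 FPKM). In HSD17B1TG it was TG1 for *Gstz1* (9.44 FPKM).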

How the results depend on the processing

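Of the 4 genes called up, *Gsto1*, *Gstp2* and *Gstt2* were also called under each of 8 other tests, scalings and filters of the 10 mice and at a fold over 1.5, and *Mgst3* under all but the fit without a filter on low counts, where 3 were called. DESeq2 called 4 genes down in place of 0 and gave an adjusted p under 0.05 to 7 genes up and 5 down, and limma voom with quality weights called 7 up and 3 down, with 8 and 4 by adjusted p alone, where voom called 6.37% up and 3.91% down over all genes. With both TG1 and WT4 left out, an alternative chosen after seeing the data, 8 were called up and 4 down, with 8 and 5 by adjusted p, where 6.7% and 5.16% of all genes were called. Pathway genes called came to 12 up and 3 down with DESeq2, 12 and 4 with voom, 17 and 4 without TG1 and WT4, and 0 down with limma on log2(FPKM + 1), against 7 and 1. Over the fits that left out 1 mouse, counts ranged from 0 to 8 called up and 0 to 4 called down, 0 to 8 and 0 to 5 by adjusted p, and 1 to 13 and 0 to 3 for pathway genes. These fits hold 1 mouse fewer, and apart from that the cause was not tested. Signs turned only in genes without a call. The log2 fold change of *Gstp1* was -0.07273 with voom, -0.04519 without TG1 and WT4, and between -0.008039 and 0.166 with 1 mouse left out. That of *Hpgds* was 0.0332 on log2(FPKM + 1), 0.08665 on log2(FPKM + 0.1), and between -0.3691 and 0.5648 with 1 mouse left out, reversing without WT5. That of *Gstt1* ran from -0.4542 to 0.0789, reversing without TG3 or WT5, and that of *Gpx3* from -1.025 to 0.2483, reversing without WT5. No paired analysis was possible because the numbers in the labels are not explained and only 1 of them, borne by TG1 and WT4, occurs in both groups. Low counts limit *Gsta1*, *Gstm3*, *Mgst2* and *Gstt4*, which could not be tested at this depth, and the WT level of *Gstp2*.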
